A study of Mus musculus with 17 samples.

Results

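The zinc transporters and metallothioneins described here are 10 of the 55450 genes in the bulk expression table, chosen by name with their values in these data already known. They are 5 zinc importers of the ZIP family (Slc39a4, Slc39a6, Slc39a8, Slc39a10 and Slc39a14), 2 transporters of the ZnT family (Slc30a1 and Slc30a4), the metallothioneins Mt1 and Mt2, and the transcription factor Mtf1. ZIP proteins, encoded by Slc39a genes, move zinc into the cytosol from outside the cell or from organelles, and ZnT proteins, encoded by Slc30a genes, move it out of the cytosol. Metallothioneins are small cysteine-rich proteins that bind zinc and other metals, and Mtf1 senses zinc and activates genes that carry metal response elements, among them Mt1, Mt2 and Slc30a1. Several ZIP genes have long been studied in breast tissue, which supplies zinc to milk, and Slc39a6 was first known as the estrogen-regulated gene LIV-1.

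The cells came from female FVB/NJ mice that carry the MMTV-PyMT transgene, in which a mammary promoter drives the polyoma middle T oncogene. Bulk RNA-seq covered 14 libraries in 7 groups of 2. One group is labelled as primary tumor of the mammary fat pad (MFP), with no CD44 status, and the methods refer to it as a cultured and sorted cell line too. The others were CD44low and CD44high cells from lung, lymph node (LN) and bone marrow (BM), collected as EpCAMhigh by flow sorting after about a month of culture. The methods describe the 2 replicates of a group as clonal isolates from different mice, so the spread between them is that between 2 isolates. Single-cell RNA-seq covered 1 library each of lung-derived CD44high, lung-derived CD44low and LN-derived CD44high cells. All groups carry the PyMT transgene, and the labels name no zinc treatment.

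Levels are given as TPM, transcript abundances corrected for transcript length and scaled to a common library total, and 11508 to 13052 genes per library reached 1 TPM. Values of the pair of libraries of a group are given replicate 1 first. Differences are between group means of log2(TPM + 1), each with the standard error (SE) of a limma fit over the 15348 genes that reached 1 TPM in 2 or more libraries. Because the 10 genes were picked with these levels known, their differences are a description and carry no p-value. In bulk libraries, fewer cells that express a gene and less RNA per cell cannot be told apart.

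The lung-derived libraries stood apart from the others in cell type markers. In lung-derived CD44low cells Epcam, Cdh1, Krt8 and Krt19 were at 0 in both libraries, against the EpCAMhigh gate in the labels (Krt19 was at most 0.08 TPM in any library). All 6 fibroblast markers examined reached 1 TPM in both, with sums of 4632 and 4969 TPM. Dcn made up most of these sums, at 4090.71 and 4315.33 TPM. The lung-derived CD44high libraries also went against the gate, with 0.23 and 0.86 TPM of Epcam and 0 and 0.03 TPM of Cdh1, where Epcam was 315 to 941 TPM in all libraries from other tissues. In lung-derived CD44high cells 2 of the 6 fibroblast markers reached 1 TPM in both libraries, Dcn (166.3 and 78.87 TPM) and Pdgfra (21.45 and 4.51 TPM), while Col1a2 was at 0 and Col1a1 at most 0.08 TPM. All 6 summed to at most 11.5 TPM in the MFP, LN and BM libraries. The 7 epithelial markers summed to 1.74 to 2.36 TPM in lung-derived CD44low cells, to 15.7 to 87.5 TPM in lung-derived CD44high cells, to 2079 to 4354 TPM in those from LN or BM, and to 6209 to 7114 TPM in MFP. MFP stood apart as well, with 428 and 321 TPM of Cldn7 against at most 0.65 TPM in any other library, and 594 and 655 TPM of Krt14 against at most 62.4 TPM. The 5 cycling markers summed to 1.75 to 27.8 TPM in the 4 lung libraries and to 329 to 4482 TPM elsewhere. In the single-cell libraries, Mki67, Top2a, Cenpf and Ccnb1 were instead higher in lung-derived than in LN-derived CD44high cells, and Birc5 was lower. Top2a was at 3.17 against 1.52 counts per 10000, and Birc5 at 1.68 against 8.78. All 5 were lower in lung-derived CD44low than in LN-derived CD44high cells. The bulk marker values are given because several zinc genes differed along the same line in bulk. The part of cell type in those differences was not tested.

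Mt1 and Mt2 lie side by side on chromosome 8 in the mm10 build, with Mt2 at chr8:94172664-94173568 and Mt1 at chr8:94179082-94180327, both on the plus strand and separated by 5513 bases. Mt3 and Mt4 lie upstream in the same cluster, 18517 bases before Mt2 for Mt3 and a further 13575 bases before that for Mt4. The promoters of Mt1 and Mt2 are shown because both genes are classical targets of Mtf1 and their levels are described together further on. The 250 bases before the RefSeq start of each (GRCm38.p6, plus strand, 5′ to 3′, Mt1 at chr8:94178839-94179088 and Mt2 at chr8:94172368-94172617) are given with every metal response element core in capitals, meaning TGCACNC or TGCGCNC on either strand.
Mt1: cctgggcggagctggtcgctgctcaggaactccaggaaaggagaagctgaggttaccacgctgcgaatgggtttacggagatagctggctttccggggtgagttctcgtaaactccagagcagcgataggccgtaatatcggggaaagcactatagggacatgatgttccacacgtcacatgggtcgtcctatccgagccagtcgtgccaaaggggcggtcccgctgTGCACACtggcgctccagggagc
Mt2: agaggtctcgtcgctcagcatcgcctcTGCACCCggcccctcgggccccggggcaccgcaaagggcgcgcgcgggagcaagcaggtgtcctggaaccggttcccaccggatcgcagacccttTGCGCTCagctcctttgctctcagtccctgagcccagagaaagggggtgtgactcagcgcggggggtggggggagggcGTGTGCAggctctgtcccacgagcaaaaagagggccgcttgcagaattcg
Over the 300 bases from 250 before to 50 after the start, Mt1 held 3 cores and Mt2 held 4, of which 1 and 3 lie in the printed stretches. Among 32851 RefSeq promoters of the same length, 25.7% held at least 1 core, 1.97% at least 3 and 0.517% at least 4. Of the 10 genes, 7 had a promoter in this table, the others being Slc39a4, Slc39a6 and Slc39a14, which were not searched. Slc30a4 held 3 cores and Slc30a1 held 2, Slc39a8 held 1 at one of its starts and 0 at the other, and Slc39a10 and Mtf1 held 0. GENCODE places the starts of the Mt1 transcripts at 94179082, 94179211 and 94179241, so the window lies wholly before the later ones. These matches describe the letters in the windows only.

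Slc39a4 encodes ZIP4, the plasma membrane importer best known for zinc uptake in the intestine, and lies on the minus strand at chr15:76612383-76617384. Its level divided the bulk libraries into groups that did not overlap. It was 39.83 and 32.32 TPM in LN-derived CD44high cells, 32.84 and 36.91 TPM in BM-derived CD44low cells, and 56.49 and 37.07 TPM in BM-derived CD44high cells. The levels were 1.85 and 0.76 TPM for MFP, and 1.32 and 1.26 TPM for LN-derived CD44low cells. In lung-derived CD44low cells it was 0.13 and 0.26 TPM, and in lung-derived CD44high cells it was listed at 0 in both libraries. All 6 libraries of the first 3 groups thus lay above 32 TPM and the other 8 below 2 TPM.

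Within the high groups the order of Slc39a4 was BM-derived CD44high, LN-derived CD44high and BM-derived CD44low, and the libraries of neighbors in that order overlapped. Compared to MFP, Slc39a4 was higher by 4.04 ± 0.31 (SE, n = 2) in LN-derived CD44high cells, by 3.999 ± 0.31 in BM-derived CD44low cells and by 4.39 ± 0.31 in BM-derived CD44high cells on the log2 scale. In the LN, CD44high cells were above CD44low cells by 4.01 ± 0.31, whereas in the BM the same difference was 0.39 ± 0.31, with both CD44high libraries above both CD44low libraries by a narrow margin. With 0.1 in place of 1 added to TPM, the differences from MFP were 4.80, 4.75 and 5.15 in the same order, and that in the LN was 4.69. Slc39a4 made up 11.5% to 18.4% of the summed TPM of the 14 Slc39a genes in the 6 high libraries and at most 0.506% in any other library. The plot of the makeup of the ZIP transcripts shows this share as a band that is visible in the 6 libraries only.

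**Figure D1:**
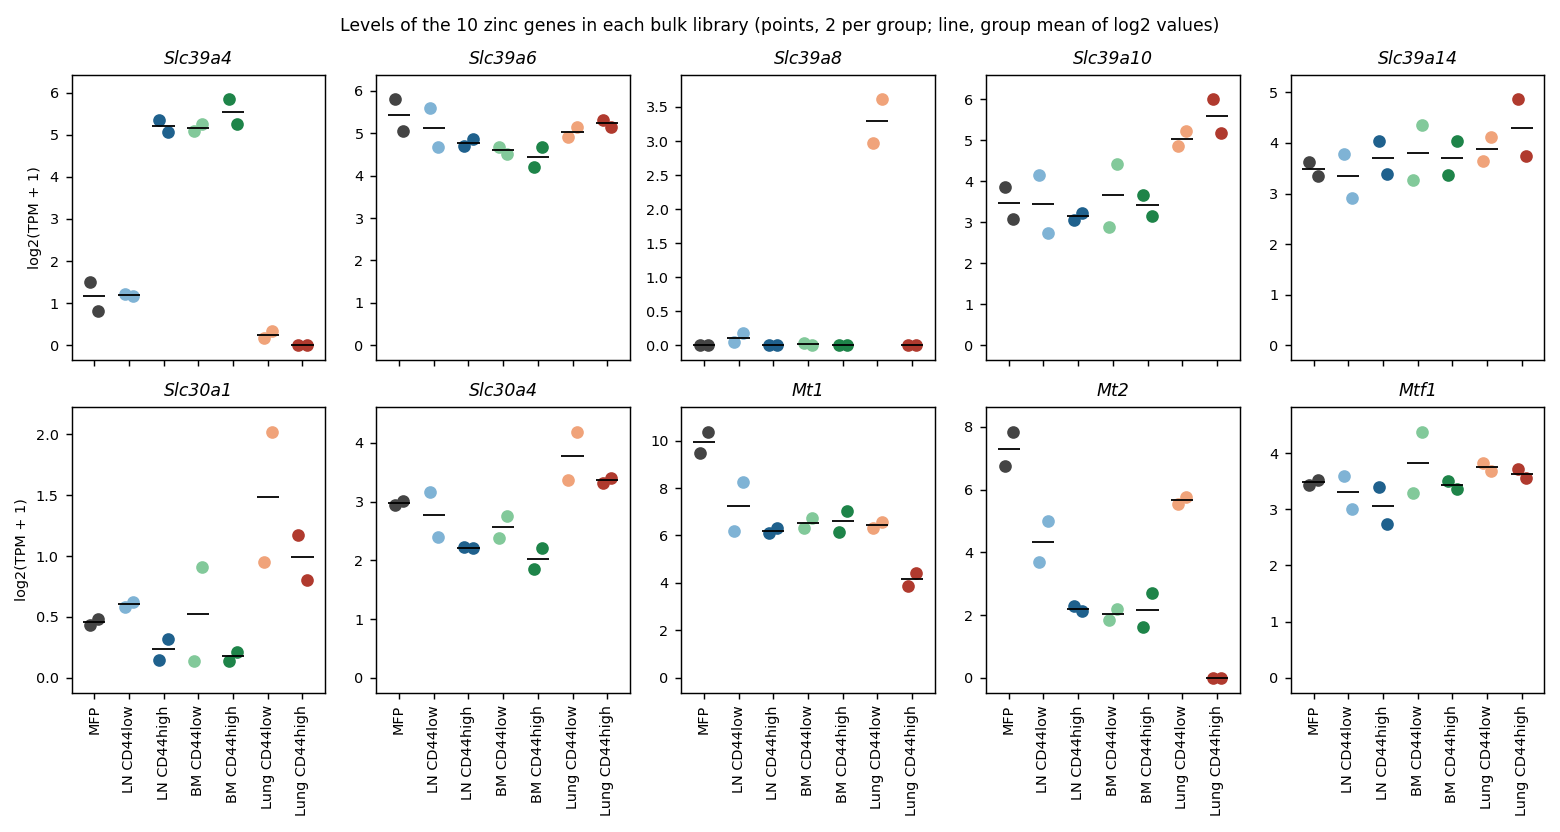
Levels of the 10 zinc genes in each of the 14 bulk libraries as log2(TPM + 1) on the y axis, with 1 panel per gene and its own scale, the 7 groups on the x axis, 1 point per library and a line at the mean of the log2 values of a group. Slc39a4 is high in LN CD44high and both BM groups, Slc39a8 in lung CD44low, and Mt1 and Mt2 in MFP, while Mt2 is at 0 in both lung CD44high libraries.

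Slc39a8 encodes ZIP8, which carries zinc and manganese, and lies on the plus strand at chr3:135825279-135888572. It was 6.86 and 11.25 TPM in lung-derived CD44low cells. In the other 12 libraries it was at most 0.13 TPM, in LN-derived CD44low cells, and it was listed at 0 in both libraries of MFP, LN-derived CD44high, BM-derived CD44high and lung-derived CD44high cells. The lung-derived CD44low libraries were thus the only ones above 1 TPM, and the gene passed the filter on low values through that group alone. They are also the libraries in which all 6 fibroblast markers reached 1 TPM, a relation that was not tested. The single-cell library of the same label held 3192 counts of Col1a2, 965 of Col1a1, 141 of Pdgfra and 102 of Col3a1, but 22 of Dcn and 0 of Lum.

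Slc39a14 encodes ZIP14, a relative of ZIP8 that carries zinc, manganese and iron, and lies on the minus strand at chr14:70303469-70351425. It was expressed in every library. The lowest value was 6.49 TPM in an LN-derived CD44low library and the highest was 28.17 TPM in a lung-derived CD44high library, whose other replicate gave 12.34 TPM. Along the order of group means, from lung-derived CD44high cells at 20.3 ± 11.2 TPM (SD, n = 2) to LN-derived CD44low cells at 9.6 ± 4.4 TPM, each group overlapped with the next. Slc39a8 and Slc39a14 therefore had different patterns, the first being at or near 0 in 12 libraries and the second present in all 14.

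Slc39a6 encodes ZIP6 and Slc39a10 encodes ZIP10, close relatives that can form a complex with each other at the cell surface. Slc39a6 had 54.96 and 32.14 TPM in the MFP group, 47.09 and 24.71 TPM in LN-derived CD44low cells and 24.99 and 28.13 TPM in LN-derived CD44high cells. In BM it was 24.75 and 21.74 TPM in CD44low and 17.31 and 24.51 TPM in CD44high cells, and in lung 29.07 and 34.73 TPM in CD44low and 39.05 and 34.33 TPM in CD44high cells. The log2 difference of every group from MFP was under 1 in size. It was lowest in the BM groups, with log2 differences from MFP of -0.83 ± 0.34 (SE) in CD44low and -0.99 ± 0.34 in CD44high cells, and scaling by the median ratio in place of TPM brought the second to -0.44.

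Slc39a10, on the minus strand at chr1:46807544-46892852, was 27.81 and 36.03 TPM in lung-derived CD44low cells and 62.88 and 34.99 TPM in lung-derived CD44high cells. In MFP it was 13.48 and 7.44 TPM, in LN 16.69 and 5.67 TPM in CD44low and 7.32 and 8.38 TPM in CD44high cells, and in BM 6.42 and 20.53 TPM in CD44low and 11.57 and 7.94 TPM in CD44high cells. All 4 lung libraries lay above all 10 others, the nearest being a BM-derived CD44low library at 20.53 TPM. Compared to MFP the log2 difference was 1.56 ± 0.58 (SE) in lung-derived CD44low and 2.12 ± 0.58 in lung-derived CD44high cells, and the mean of the lung groups was 1.89 ± 0.36 above that of the 4 LN and BM groups. The 2 lung groups overlapped with each other, as did MFP with each LN and BM group.

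Slc30a1 encodes ZnT1, the zinc exporter of the plasma membrane and a target of Mtf1, and lies on the plus strand at chr1:191906767-191913247. It was low throughout, and reached 1 TPM only in 1 library of each lung group, through which it passed the filter on low values. It was 0.93 and 3.06 TPM in lung-derived CD44low cells and 1.25 and 0.75 TPM in lung-derived CD44high cells. Elsewhere it ranged from 0.1 to 0.88 TPM, and the higher end was again the second BM-derived CD44low library. Against MFP, at 0.35 and 0.4 TPM, lung-derived CD44low cells were higher by 1.03 ± 0.34 (SE) on the log2 scale, a value that became 1.56 without lung CD44low replicate 1. At such levels the log2(TPM + 1) scale understates a difference, and with 0.1 in place of 1 added to TPM the same difference was 1.93.

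Slc30a4 encodes ZnT4, which loads zinc into vesicles and is the gene mutated in the lethal milk mouse, and lies on the minus strand at chr2:122681233-122702663. It was 9.32 and 17.24 TPM in lung-derived CD44low cells and 9 and 9.6 TPM in lung-derived CD44high cells, while MFP had 6.65 and 7.05 TPM. In LN it was 7.91 and 4.28 TPM in CD44low and 3.69 and 3.61 TPM in CD44high cells, and in BM 4.2 and 5.72 TPM in CD44low and 2.6 and 3.61 TPM in CD44high cells. Slc30a4 was thus highest in the lung groups and lowest in the CD44high cells of LN and BM, and all lung libraries lay above all others. The mean of the lung groups was 1.17 ± 0.21 (SE) above that of the LN and BM groups on the log2 scale. In LN and in BM both CD44high libraries lay below both CD44low libraries, with log2 differences of -0.56 ± 0.35 and -0.54 ± 0.35.

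Mt1 had the highest level of the 10 genes in all libraries outside lung-derived CD44high cells. Mt1 was 721.42 and 1325.37 TPM in MFP. In LN it was 71.76 and 308.06 TPM in CD44low and 66.93 and 78.37 TPM in CD44high cells, in BM 78.35 and 104.27 TPM in CD44low and 70.45 and 131 TPM in CD44high cells, and in lung 78.56 and 95 TPM in CD44low and 13.73 and 20.35 TPM in CD44high cells. Both MFP libraries lay above, and both lung-derived CD44high libraries below, all other libraries. The MFP libraries are also those with the high Cldn7 and Krt14 given above, and the part of this in the Mt1 and Mt2 differences was not tested. Between these ends the LN, BM and lung CD44low groups lay close together, apart from the second LN-derived CD44low library.

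The log2 difference of Mt1 from MFP was -3.42 ± 0.59 (SE) in BM-derived CD44low, -3.33 ± 0.59 in BM-derived CD44high, -3.74 ± 0.59 in LN-derived CD44high and -3.49 ± 0.59 in lung-derived CD44low cells. The difference was -5.79 ± 0.59 in lung-derived CD44high cells, the lowest group. In LN-derived CD44low cells it was -2.71 ± 0.59, and it was -1.66 without LN CD44low replicate 1 and -3.75 without LN CD44low replicate 2. The LN-derived CD44low library with 308.06 TPM of Mt1 also had the lower sum of cycling markers of that group, 379 TPM against 2855 TPM. The difference between CD44high and CD44low cells of the LN depended on the same pair, being -1.03 ± 0.59 with both libraries, 0.01 without replicate 2 and -2.07 without replicate 1. In lung, CD44high cells lay below CD44low cells without overlap, with a log2 difference of -2.30 ± 0.59.

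Mt2 reached 107.67 and 228.51 TPM in the MFP libraries, 46 and 53.49 TPM in lung-derived CD44low cells and 11.86 and 30.86 TPM in LN-derived CD44low cells. It was 3.87 and 3.38 TPM in LN-derived CD44high cells, 2.62 and 3.56 TPM in BM-derived CD44low cells and 2.05 and 5.57 TPM in BM-derived CD44high cells. In lung-derived CD44high cells it was listed at 0 in both libraries, while Mt1 was still detected there. In the order of the group means, MFP, lung-derived CD44low and LN-derived CD44low cells each lay apart from the next, and the BM groups and LN-derived CD44high cells overlapped. The log2 difference of Mt2 from MFP was -5.10 ± 0.51 (SE) in LN-derived CD44high, -5.28 ± 0.51 in BM-derived CD44low and -5.14 ± 0.51 in BM-derived CD44high cells, and it was -2.96 ± 0.51 in LN-derived and -1.64 ± 0.51 in lung-derived CD44low cells. The value in LN-derived CD44low cells was -2.31 without LN CD44low replicate 1 and -3.62 without replicate 2. In the LN, CD44high cells lay below CD44low cells without overlap, with a log2 difference of -2.13 ± 0.51, which was -2.79 without LN CD44low replicate 1 and -1.48 without replicate 2.

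The balance of the pair was not the same across groups. The ratio of the TPM of Mt1 to that of Mt2 was 6.70 and 5.80 in MFP and 6.05 and 9.98 in LN-derived CD44low cells. It was 17.3 and 23.2 in LN-derived CD44high, 29.9 and 29.3 in BM-derived CD44low and 34.4 and 23.5 in BM-derived CD44high cells. In lung-derived CD44low cells the ratio was 1.71 and 1.78, below every other library in which it could be formed, and in lung-derived CD44high cells it could not be formed because Mt2 was at 0. Mt1 was at similar levels in lung-derived CD44low and BM-derived cells, so the difference in ratio between them lay in Mt2. Mt1 and Mt2 transcripts shared 0 stretches of 31 bases in the GENCODE annotation. Gm45774, an antisense gene, overlaps 432 exonic bases of Mt2 and was at most 0.15 TPM in any library.

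**Figure D2:**
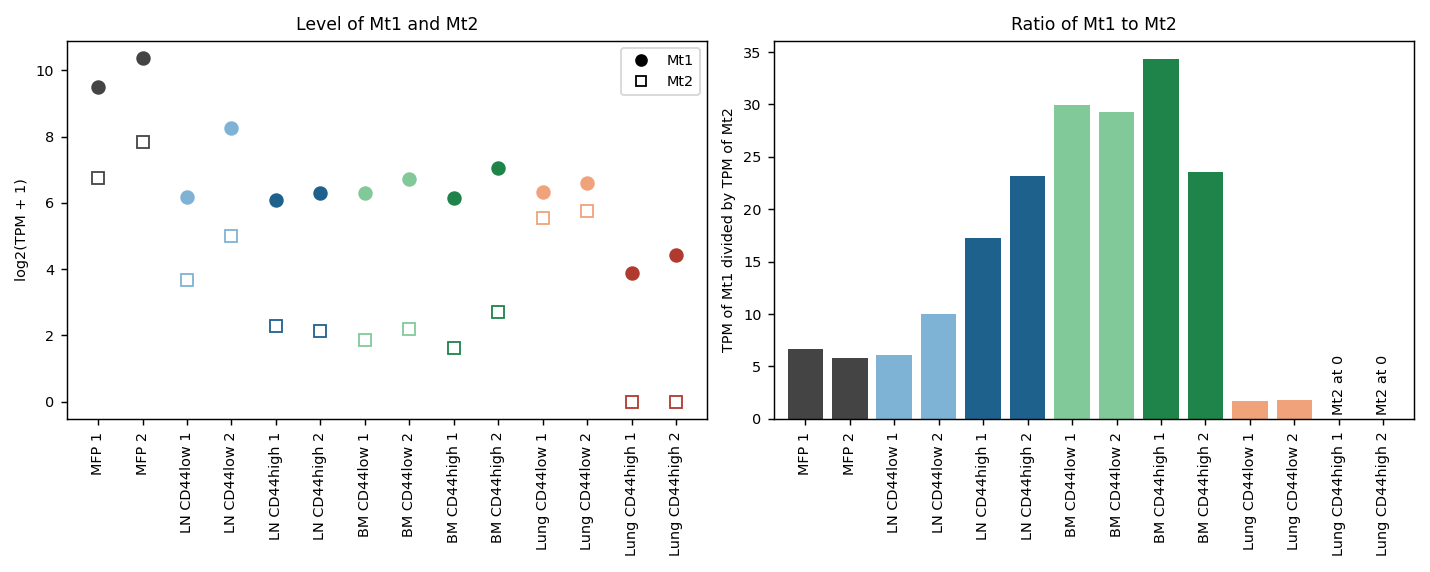
Left, levels of Mt1 (filled circles) and Mt2 (open squares) as log2(TPM + 1) in each of the 14 bulk libraries, colored by group. Right, the TPM of Mt1 divided by that of Mt2 in the same libraries, on an axis that starts at 0, which is lowest in lung CD44low (1.71 and 1.78) and highest in a BM CD44high library (34.4), with no bar where Mt2 is at 0.

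Mtf1, the zinc-sensing regulator, lies on the plus strand at chr4:124802104-124849800 and was present in every library. Mtf1 had 9.78 and 10.53 TPM in the MFP group, 11.11 and 7.01 TPM in LN-derived CD44low and 9.55 and 5.64 TPM in LN-derived CD44high cells. In BM it was 8.73 and 19.83 TPM in CD44low and 10.39 and 9.33 TPM in CD44high cells, and in lung 13.19 and 11.77 TPM in CD44low and 12.14 and 10.74 TPM in CD44high cells. Of the 14 libraries only BM CD44low replicate 2 was above 14 TPM. The log2 differences from MFP ran from -0.41 ± 0.38 (SE) in LN-derived CD44high to 0.35 ± 0.38 in BM-derived CD44low cells, and under median-ratio scaling the first became 0.07. A further protein-coding gene on the opposite strand, 1110065P20Rik, shares 721 exonic bases with Mtf1 and reached 56.92 TPM. Whether strand was used in counting is not given in the sources used here, so reads in the shared bases cannot be assigned with certainty.

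Counted by the same thresholds as all genes, an adjusted p under 0.05 and an absolute log2 difference over 2, the members past both were as follows. The share of all 15348 genes past both is given beside each count, and nothing is read from the counts because the members were chosen on these levels. Slc39a8 is left out of them, since it passed the filter on low values only through the group in which it is high. Against MFP they were Mt1 and Mt2, both lower, in LN-derived CD44low cells (4.79% of all genes), and Slc39a4, higher, with Mt1 and Mt2, lower, in LN-derived CD44high (6.12%), BM-derived CD44low (7.16%) and BM-derived CD44high cells (7.67%). In lung-derived CD44low cells it was Mt1, lower (18.8%), and in lung-derived CD44high cells Slc39a10, higher, with Mt1 and Mt2, lower (13.5%). The Slc39a10 difference was under the threshold of 2 without lung CD44high replicate 1 (1.70) or MFP replicate 2 (1.73), and so was that of Mt1 in LN-derived CD44low cells without LN CD44low replicate 1, as given above. These 6 comparisons share the same MFP libraries. Between CD44high and CD44low cells, the members past both were Slc39a4, higher, in LN (0.208% of all genes), none in BM (0.104%), and Mt1 and Mt2, both lower, in lung (11.3%). For lung against LN and BM it was Slc39a4, lower (12.7%).

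**Figure D3:**
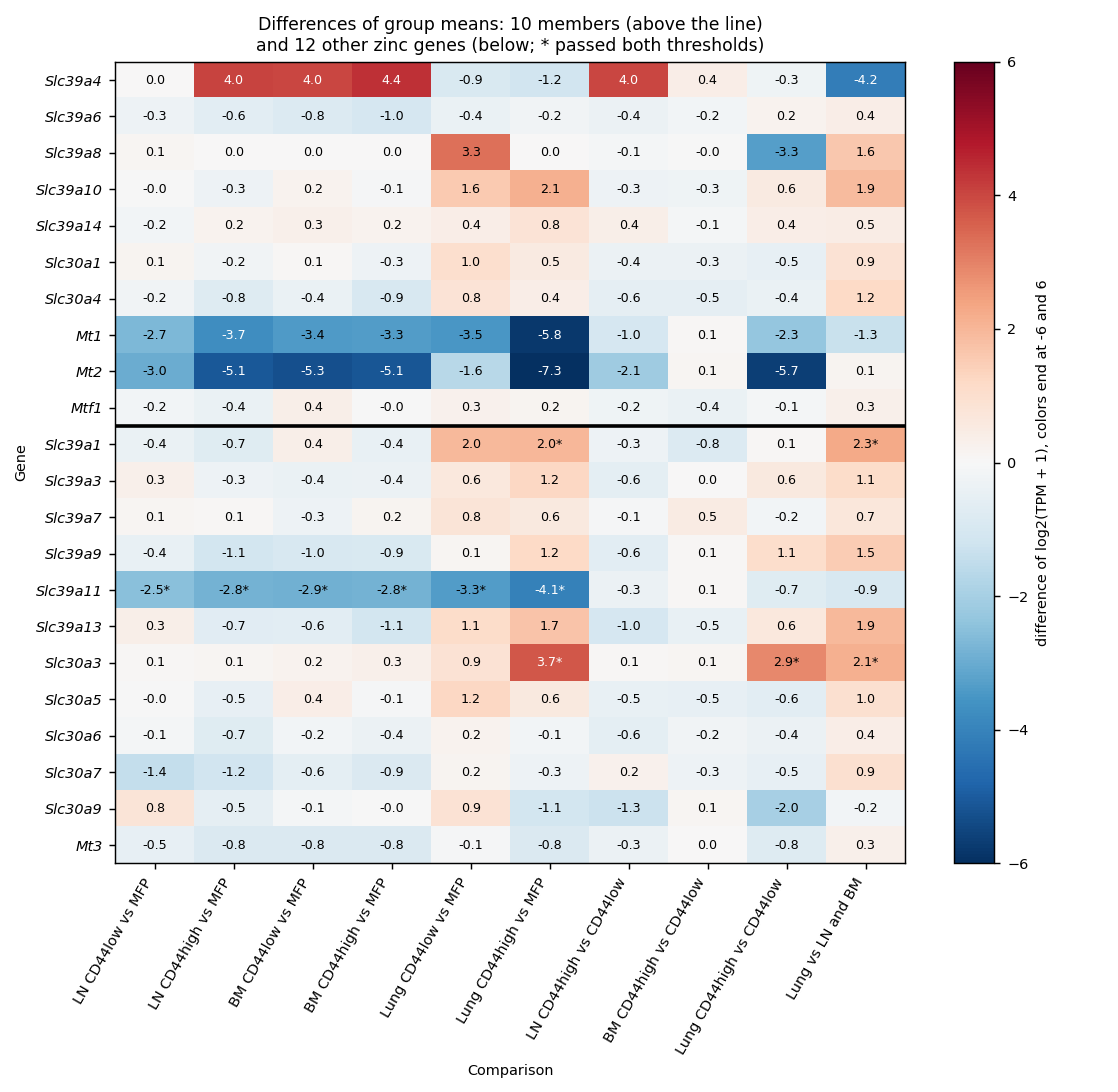
Differences of group means of log2(TPM + 1) for the 10 members (above the line) and the 12 other zinc genes that passed the filter (below it), with genes as rows and the 10 comparisons as columns. Color and number give the difference of the first named group from the second, colors end at -6 and 6, a star marks other zinc genes past both thresholds (those of Slc30a3 are no test, since it passed the filter only through lung CD44high), and where a group is at 0 the number depends on the 1 that was added to TPM. Mt1 and Mt2 are below MFP in all 6 columns against it, and so is Slc39a11 with a star in each.

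The other genes of the families were tested in the same fit. They are 19, namely the remaining 9 Slc39a genes, 8 Slc30a genes, Mt3 and Mt4. Of these, 12 passed the filter on low values, and the 7 others (Slc39a2, Slc39a5, Slc39a12, Slc30a2, Slc30a8, Slc30a10 and Mt4) were at most 0.19 TPM in any library. Slc30a3 and Mt3 passed the filter through 2 libraries each. For Slc30a3 these were the lung-derived CD44high libraries, and for Mt3 an MFP and a lung-derived CD44low library, so differences there were bound up with passing the filter. Their values are given with no p-value, and both are left out of the counts that follow, which are of the 10 others. By limma with Benjamini-Hochberg adjustment, 1 of the 10 passed both thresholds against MFP in each LN and BM group and in lung-derived CD44low cells, and 2 did in lung-derived CD44high cells (Slc39a11 and Slc39a1), beside the shares of all genes given above. By the adjusted p alone, 2 of the 10 passed against MFP in LN-derived CD44low (14% of all genes), 3 in LN-derived CD44high (23.8%), 2 in BM-derived CD44low (23.2%), 3 in BM-derived CD44high (27%), 4 in lung-derived CD44low (45%) and 6 in lung-derived CD44high cells (36.1%).

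The gene that passed in all 6 comparisons with MFP was Slc39a11, which encodes ZIP11, an intracellular member of the family. Its level was 116.96 and 99.58 TPM for MFP and between 4.88 and 19.51 TPM in the other 12 libraries. The MFP libraries did not overlap with any other group. All 6 comparisons rest on the same pair of MFP libraries, which also stood apart in Cldn7 and Krt14 as given above, and the part of this in the difference was not tested. Slc39a11 fell by 2.49 ± 0.27 (SE, adjusted p = 0.000197, limma) in LN-derived CD44low cells, the smallest of the 6 differences, and fell by 4.06 ± 0.27 (adjusted p = 2.99e-06, limma) in lung-derived CD44high cells, the largest of the 6, on the log2 scale. Slc39a11 made up 26.5% and 29.1% of the summed ZIP TPM in MFP and at most 7.0% elsewhere.

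**Figure D4:**
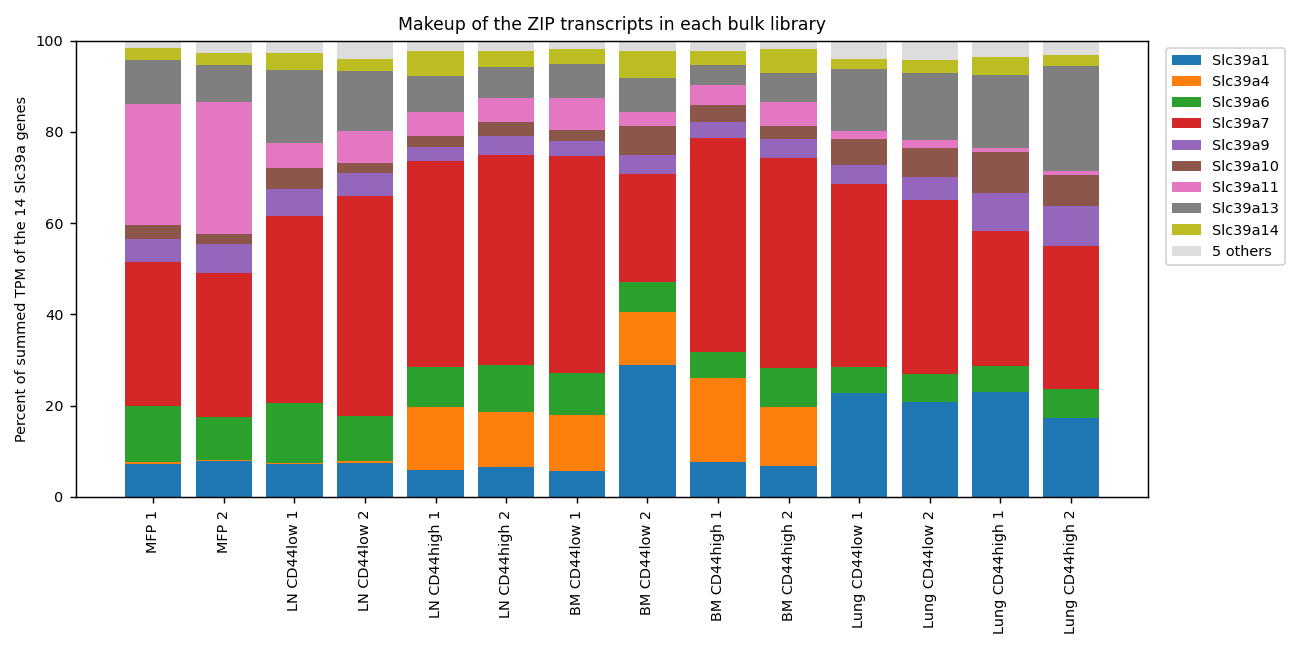
Share of each ZIP gene in the summed TPM of the 14 Slc39a genes, in percent on the y axis, stacked for each of the 14 bulk libraries, with the 5 genes that stay under 5% in every library drawn together. Slc39a11 is widest in MFP (26.5% and 29.1%), Slc39a4 is visible in LN CD44high and the BM groups (11.5% to 18.4%), and Slc39a7 takes 23.7% to 48.2% in every library.

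Lung-derived cells had more ZIP transcripts in all. The 14 Slc39a genes summed to 505 to 697 TPM in the 4 lung libraries and to 249.12 to 441.74 TPM in the other 10. Against the LN and BM groups, 1 of the 10 passed both thresholds, Slc39a1, and by the adjusted p alone 8 were higher and 1 lower, where 59.9% of all genes passed the adjusted p alone, 35.9% higher and 24% lower. The median difference of the 10 was 0.95 on the log2 scale, and that of all genes tested was 0.20. Slc39a1, which encodes ZIP1, an importer found in most tissues, was 114.64 and 118.03 TPM in lung-derived CD44low and 160.95 and 90.61 TPM in lung-derived CD44high cells. Elsewhere it lay between 15.08 and 31.45 TPM except in BM CD44low replicate 2, at 93.36 TPM. Against MFP, Slc39a1 rose by 2.01 ± 0.64 (SE, adjusted p = 0.0329, limma) in lung-derived CD44high cells, and without any 1 of the libraries of these groups the adjusted p was between 0.0502 and 0.189. The rise of Slc39a1 in lung against LN and BM was 2.28 ± 0.39 (SE, adjusted p = 0.00067, limma), and it was 1.96 (adjusted p = 1.69e-05), under the threshold of 2, without BM CD44low replicate 1.

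Slc39a13, which encodes ZIP13 and is known for its role in connective tissue, was 68.69 and 83.11 TPM in lung-derived CD44low and 111.02 and 121.83 TPM in lung-derived CD44high cells, against 13.24 to 57.88 TPM in all other libraries. It rose by 1.94 ± 0.19 (SE, adjusted p = 1.67e-05, limma) in lung against LN and BM, just under the fold threshold. Slc39a9, which encodes ZIP9 of the secretory pathway, was 58.19 and 46.66 TPM in lung-derived CD44high cells and at most 27.86 TPM elsewhere. Both genes thus had their highest values in lung-derived CD44high cells, with all lung libraries above all LN and BM libraries.

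The remaining genes of the 10 passed in no comparison by both thresholds. Slc39a3, which encodes the importer ZIP3, was 12.38 to 24.38 TPM in the lung libraries and 4.66 to 10.04 TPM in all others, a difference between lung and the LN and BM groups of 1.12 ± 0.17 (SE, adjusted p = 0.00033, limma). Slc39a7, which encodes ZIP7 of the endoplasmic reticulum, was 76.3 to 216.98 TPM over all libraries, and the same difference was 0.67 ± 0.15 (SE, adjusted p = 0.00375, limma). Slc30a5, Slc30a6 and Slc30a7 encode transporters of the secretory pathway, ZnT5 and ZnT6 acting as a pair. The differences were 0.96 ± 0.33 (SE, adjusted p = 0.0284, limma) for Slc30a5, 0.39 ± 0.12 (SE, adjusted p = 0.0198, limma) for Slc30a6 and 0.94 ± 0.25 (SE, adjusted p = 0.00831, limma) for Slc30a7. Under median-ratio scaling, which moved the median of all genes by -0.21 in this comparison, all 5 kept their sign, with Slc39a7 at 0.39 and Slc30a6 at 0.12. The Slc39a3 libraries then overlapped, with lung CD44low replicate 2 at 10.67 and LN CD44low replicate 2 at 11.77.

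Within organs, 0 of the 10 passed both thresholds between CD44high and CD44low cells in LN or in BM by limma (0.208% and 0.104% of all genes). By the adjusted p alone 0 passed in either (0.378% and 0.15% of all genes). In lung 0 of the 10 passed both by limma (11.3% of all genes), and 2 passed by the adjusted p alone (30.7%). At an unadjusted p under 0.05 there were 3 in LN, 0 in BM and 3 in lung. The share of all genes at an unadjusted p was not counted, so nothing is read from these counts. Slc30a3 encodes ZnT3, the transporter that fills synaptic vesicles with zinc in neurons. It was listed at 0 in MFP, and it was 9.67 and 15.58 TPM in lung-derived CD44high cells and 0.94 and 0.72 TPM in lung-derived CD44low cells. It was at most 0.54 TPM in the LN and BM libraries. The difference between CD44high and CD44low cells of the lung was 2.86 ± 0.26 (SE) on the log2 scale, and without either lung CD44high library it no longer passed the filter on low values. Slc30a9, which encodes the mitochondrial ZnT9, was 10.67 and 13.86 TPM in lung-derived CD44high and 39.01 and 66.6 TPM in lung-derived CD44low cells, and fell by 1.98 ± 0.32 (SE, adjusted p = 0.00114, limma), just short of the fold threshold. Mt3, the metallothionein of the brain, was at most 1.03 TPM in any library.

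The genes most like each member over the 14 libraries are given by Pearson's r of log2(TPM + 1), as a description over libraries that share groups and tissue. Slc39a4 was closest to Acss1 (r = 0.977) and C130032M10Rik (0.976). Slc39a8 was closest to Jph2 and Armcx2, both with r = 0.999, where 12 of 14 libraries are near 0 for Slc39a8 and the r rests on the pair of lung-derived CD44low libraries. Slc39a10 was closest to Tram2 (0.976) and Ppt2 (0.97), Slc30a1 to Sap30l (0.962) and Foxj2 (0.942), and Slc30a4 to Nr4a3 and D230025D16Rik (both 0.962). The metallothioneins had Mgst3 (0.944) and Ikbke (0.928) for Mt1, and Rbms1 (0.941) and Mtfr1l (0.933) for Mt2. The lowest values were those of Slc39a6 with Kif3b (0.919) and Ctnnal1 (0.902), Slc39a14 with Ehmt1 (0.909) and Abl1 (0.879), and Mtf1 with Ctf1 (0.876) and Aldh5a1 (0.864).

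Among the members themselves, r over the 14 libraries was highest for Slc30a1 with Slc30a4 (0.879) and for Mt1 with Mt2 (0.858). Slc30a1 passed the filter only through lung libraries, so its r values, also with Sap30l and Foxj2, rest on levels near 0 elsewhere. It was lowest for Slc39a4 with Slc30a4 (-0.826). Mtf1 gave -0.163 with Mt1, -0.02 with Mt2 and 0.456 with Slc30a1, its known targets. Slc39a6 and Slc39a10, whose proteins can pair, gave 0.399.

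In the single-cell data, cells with over 250 genes and under 10% mitochondrial counts were kept, 1236 of 3623 barcodes in the lung-derived CD44high library, 348 of 2808 in the lung-derived CD44low library and 2562 of 3297 in the LN-derived CD44high library. They held 2210623, 2220759 and 5287425 counts, with medians of 557, 4011 and 585 counts per cell. With 1 library per group there is no test, and the 95% Poisson intervals cover counting error only. Barcodes are only numbered in the files, so cells shared between libraries could not be counted. Epcam gave 3 counts in lung-derived CD44high cells, 0 in lung-derived CD44low cells and 936 in LN-derived CD44high cells. In the same order Cdh1 gave 0, 0 and 196 counts, and Cldn3 gave 0, 44 and 1555. Krt8 was at 1.67, 0.135 and 2.80 counts per 10000 in that order. Krt18 was at 2.59, 0.522 and 1.17, highest in lung-derived CD44high cells. Krt19 and Cldn7 had at most 5 counts in any library.

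Mt1 was at 1.09 counts per 10000 (95% interval 0.953 to 1.23) in lung-derived CD44high, 0.923 (0.801 to 1.06) in lung-derived CD44low and 0.970 (0.888 to 1.06) in LN-derived CD44high cells. The 3 intervals overlap, whereas in the bulk libraries Mt1 was lower in lung-derived CD44high than in the other 2 groups. Mt2 was at 0.0136 counts per 10000 (3 counts, 0.00280 to 0.0397) in lung-derived CD44high cells, 0.153 (34 counts, 0.106 to 0.214) in lung-derived CD44low cells and 0.0511 (27 counts, 0.0337 to 0.0743) in LN-derived CD44high cells. For Mt2 the intervals of lung-derived CD44low cells lay above those of the other libraries, the same group that was highest of these 3 in bulk. The 2 assays differ in chemistry and scale, since the single-cell counts come from transcript 3′ ends, so levels are compared only within each.

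Cells with a count of Mt1 were 120 of 1236 (9.71%) in lung-derived CD44high, 87 of 348 (25%) in lung-derived CD44low and 245 of 2562 (9.56%) in LN-derived CD44high cells. When each cell with at least 1000 counts was thinned to 1000, these shares were 9.91% of 222, 7.98% of 238 and 11.8% of 306 cells, with overlapping exact binomial 95% intervals (6.32% to 14.6%, 4.87% to 12.2% and 8.38% to 15.9%). The cells too shallow for thinning were 1014, 110 and 2256. The higher unthinned share in lung-derived CD44low cells thus went with their greater depth. Mt1 and Mt2 were both detected in 0, 15 and 13 cells. None of the 3 libraries should lack Mt1, so the share that free RNA alone would give could not be set.

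Slc39a4 had 0 counts among 5287425 in LN-derived CD44high cells, which allows up to 0.00567 per 10000 by a floor of 3 counts, and 0 of 2562 cells had a count. The bulk libraries of the same label gave 39.83 and 32.32 TPM, among the highest of all groups, and the reason for the gap was not tested. Of the genes most like it in bulk, Acss1 had 12 counts there and C130032M10Rik had 0. In lung-derived cells Slc39a4 had 0 counts in CD44high and 2 counts, from 1 cell, in CD44low cells.

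Slc39a8 was detected in lung-derived CD44low cells, at 0.185 counts per 10000 (41 counts in 23 cells, 0.132 to 0.250). It had 0 counts in lung-derived CD44high cells and 1 count in LN-derived CD44high cells, and was thus highest in the same group as in bulk. The share of cells with a count was 6.61% in lung-derived CD44low cells, at a median of 4011 counts per cell, and 0.0390% in LN-derived CD44high cells at 585, and after thinning 4 of 238 and 0 of 306. Slc39a10 was higher in lung-derived CD44high cells, at 0.579 (0.483 to 0.688), than in lung-derived CD44low cells at 0.32 (0.250 to 0.403) and LN-derived CD44high cells at 0.316 (0.270 to 0.368). In bulk both lung groups lay above LN-derived CD44high cells for this gene.

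Slc39a6 was at 0.588 counts per 10000 in lung-derived CD44high, 1.43 in lung-derived CD44low and 0.842 in LN-derived CD44high cells, and none of the intervals (0.491 to 0.698, 1.27 to 1.59 and 0.765 to 0.924) overlap. Slc39a14 was at 0.502 (0.413 to 0.605), 0.797 (0.684 to 0.923) and 0.267 (0.224 to 0.315) in the same order, also without overlap. For both genes lung-derived CD44low cells gave the highest value, while their bulk libraries did not stand above both other groups.

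The exporters and Mtf1 were detected in all 3 libraries. Slc30a4 was the highest of the members in both CD44high libraries, while Slc39a6 was in lung-derived CD44low cells. Slc30a4 was at 1.19 counts per 10000 (1.05 to 1.34) in lung-derived CD44high, 1.08 (0.944 to 1.22) in lung-derived CD44low and 1.96 (1.84 to 2.08) in LN-derived CD44high cells. LN-derived CD44high cells were the highest here and the lowest of these 3 groups in bulk. Slc30a1 was at 0.109 (0.0696 to 0.162), 0.239 (0.179 to 0.312) and 0.244 (0.204 to 0.290), and Mtf1 at 0.249 (0.187 to 0.324), 0.441 (0.358 to 0.538) and 0.299 (0.254 to 0.349). Slc30a1 was thus lowest in lung-derived CD44high cells, whereas in bulk LN-derived CD44high cells were the lowest of these 3 groups. Mtf1 was highest in lung-derived CD44low cells.

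**Figure D5:**
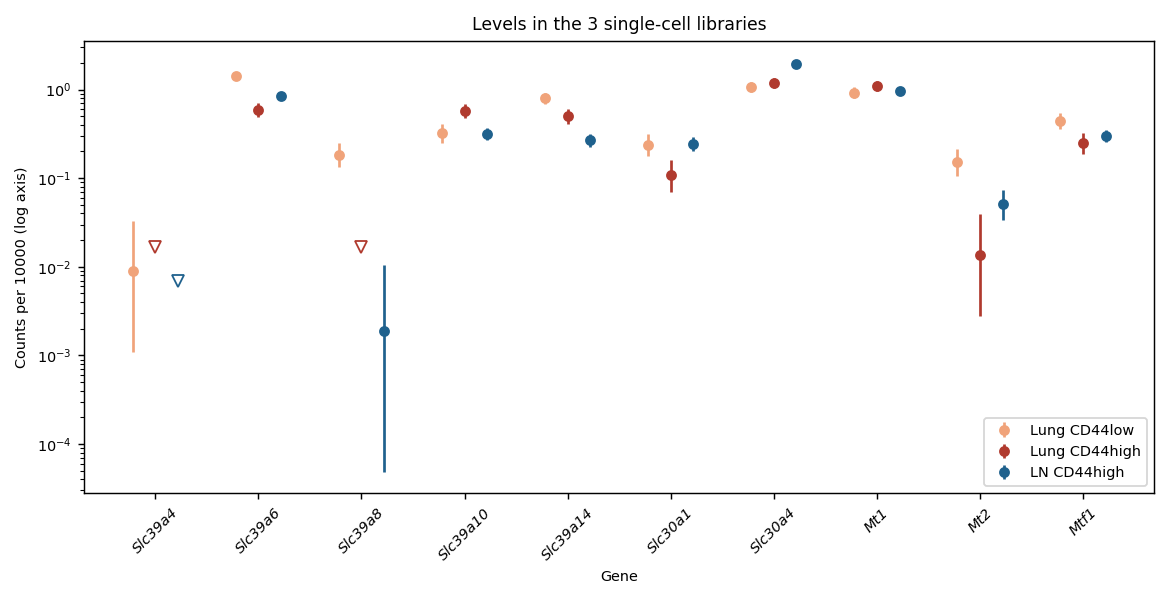
Counts per 10000 of the 10 members on a log axis in the 3 single-cell libraries, with 1 library per group. Points give the sum over kept cells, bars the exact Poisson 95% interval, which covers counting error only, and open triangles the upper limit where no count was seen. Slc39a4 has 2 counts in lung CD44low and none in the other libraries, Slc39a8 and Mt2 are highest in lung CD44low, and the 3 points of Mt1 overlap in their intervals.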

How the data were processed

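The data were 14 bulk RNA-seq libraries in 7 groups and 3 single-cell libraries. The bulk cDNA followed SMART-seq2 in modified form, and the authors mapped reads to mm10 with STAR, quantified GENCODE genes with RSEM and deposited TPM values. TPM keeps no record of the reads in each library, so counting error is unknown. For single cells, the authors used ddSeq with SureCell 3′ chemistry, Ddseeker and kallisto, and deposited counts per gene and barcode. Symbols came from the single-cell rows for 35849 of the 55450 identifiers and otherwise from a name table that held all of them, and positions came from GENCODE vM21.

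The 10 members and the list of 19 other zinc genes were chosen with earlier results of these data known. The 15348 genes that reached 1 TPM in 2 or more libraries were fitted as log2(TPM + 1) by limma 3.58.1 (R 4.3.3), with 1 mean for each of the 7 groups, which left 7 residual degrees of freedom, and a mean-variance trend. The study applied edgeR to read counts, and these were not analysed here. A gene passed with a Benjamini-Hochberg adjusted p under 0.05 and an absolute log2 difference over 2, in 10 comparisons. With 2 libraries a side, the smallest p of an exact permutation test is 0.333. Named genes are every member, every other zinc gene that passed in a comparison or had a group mean of at least 1 TPM, and the 2 genes most like each member. Mt3 was named, and Slc39a8, Slc30a3 and Mt3 were left out of counts, after their values were seen.

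Single-cell counts were summed over kept cells. No doublet caller was run. Cells were thinned once, by a draw of 1000 counts from each, with seed 5. Cell type markers were 7 epithelial, 6 myoepithelial or basal, 6 fibroblast, 5 macrophage, 4 endothelial, 4 lymphocyte and 5 cycling genes. The myoepithelial or basal markers summed to 594 to 655 TPM in MFP, nearly all of it Krt14, to 659 to 713 TPM in lung-derived CD44low cells, nearly all of it Acta2 with Krt14 at 0, and to 13.2 to 62.7 TPM elsewhere, the macrophage markers to 2.28 to 39.2 TPM, and the endothelial and lymphocyte markers to at most 0.21 TPM. Alternatives were a pseudocount of 0.1, other filters, median-ratio scaling, a replicate block, the adjusted p alone and each library left out, and for single cells other filters on cells. Data were handled with Python 3.11.15, pandas 2.3.3, numpy 2.4.6, scipy 1.17.1, matplotlib 3.10.9 and the R package data.table (version 1.17.8).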

Additional observations from a re-analysis of the deposited data

Results flagged for a closer look

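Slc39a9, Slc39a13 and Slc30a9, all outside the 10 members, differed in the CD44high minus CD44low difference between some pairs of organs by the interaction term of the limma fit, with adjusted p over all genes tested, and the members were not tested. Of all genes, 19.5% passed an adjusted p of 0.05 for lung against LN, 15.3% for lung against BM and 0.143% for BM against LN. For Slc39a9 the lung difference exceeded the LN difference by 1.70 (adjusted p = 0.017) and the BM difference by 0.998 (adjusted p = 0.146) on the log2 scale. For Slc39a13 these values were 1.64 (adjusted p = 0.0271) and 1.08 (adjusted p = 0.14). For Slc30a9 the lung difference minus the BM difference was -2.08 (adjusted p = 0.011), and minus the LN difference it was -0.68 (adjusted p = 0.335). For Slc30a3 the lung difference exceeded the LN difference by 2.81 and the BM difference by 2.76, given with no p-value because the gene passed the filter on low values only through the pair of lung-derived CD44high libraries in which it was high, and without either of them it was not tested.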

How the results depend on the processing

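The counts here are over all 12 other zinc genes tested and so include Mt3 and also Slc30a3, which adds 1 to those of lung-derived CD44high cells against MFP, CD44 in lung and lung against LN and BM. Of the 10 counts past both thresholds, none moved past 1.5 times with no filter on low values or with a filter at 5 TPM. With a pseudocount of 0.1, the counts against MFP became 2 in LN-derived CD44high, BM-derived CD44low, BM-derived CD44high and lung-derived CD44low cells, and that of the lung CD44 comparison became 3. Without Slc30a3 and Mt3 these would be 1 in all 5. Median-ratio scaling gave 2 in lung-derived CD44low cells against MFP. By the adjusted p alone, the counts against MFP were 2 and 4 in LN-derived CD44low and CD44high, 3 and 4 in BM-derived CD44low and CD44high, and 5 and 8 in lung-derived CD44low and CD44high cells, 4 for CD44 in lung and 11 for lung against LN and BM. Leaving out 1 library at a time, the counts ranged from 1 to 3 in lung-derived CD44high cells against MFP, 0 to 1 for CD44 in BM, 0 to 2 for CD44 in lung and 1 to 3 for lung against LN and BM, and were constant in the others. Slc39a1 lost its call in lung-derived CD44high cells against MFP without MFP replicate 1 or 2 or lung CD44high replicate 1 or 2, Slc39a13 gained one without MFP replicate 1, and Slc39a1 passed in BM CD44high against CD44low without BM CD44low replicate 1 (-2.08). In lung CD44high against CD44low, Slc30a9 passed without lung CD44low replicate 1 (-2.36) or lung CD44high replicate 2 (-2.16), and in lung against LN and BM Slc39a13 passed without LN CD44low replicate 1 (2.04) or lung CD44low replicate 1 (2.01).

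The labels give replicate numbers but no pairing, and deviations of same-numbered libraries correlated by -0.194 to 0.168. With the replicate number as a block, the counts were 1 for each comparison with MFP but 3 for lung-derived CD44high cells, 0 for CD44 in LN and BM, 1 for CD44 in lung and 2 for lung against LN and BM, and no call changed. Median-ratio scaling moved the median of all genes by -0.21 to 0.37 (log2), and 13 of 100 member differences changed sign, all of size 0.41 or less. It also moved the split of higher and lower genes from 375 and 565 to 511 and 361 in LN-derived CD44high and from 558 and 619 to 730 and 395 in BM-derived CD44high cells against MFP, from 18 and 14 to 27 and 12 for CD44 in LN, and from 1095 and 851 to 864 and 1030 for lung against LN and BM. Of 31 member differences of at least 1, 4 moved by over 1.5-fold with a library left out, those of Mt1 and Mt2 for LN-derived CD44low cells given above, and 12 did with a pseudocount of 0.1. The 12 were differences of Slc39a4, Slc39a8, Slc30a1 and Mt2, genes with groups under 2 TPM, and all 12 became larger in size. Of 30 single-cell levels, 13 moved past their interval as a mean over cells, 3 with over 500 genes per cell and 2 with all barcodes. The pair of isolates per group and the depth of each library, of which the methods give only a minimum, limit the bulk values. The single-cell values are limited by 1 library per group.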

Other observations

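The single-cell libraries also held the other zinc genes. Slc39a1 had the highest level of the 29 zinc genes in all 3 libraries, at 3.44 counts per 10000 (95% Poisson interval 3.20 to 3.69) in lung-derived CD44high, 3.23 (2.997 to 3.47) in lung-derived CD44low and 2.38 (2.25 to 2.52) in LN-derived CD44high cells. Slc39a7, the ZIP gene with the highest TPM in bulk in all libraries but BM CD44low replicate 2, was at 0.651, 1.44 and 0.828 in the same order. Slc39a11 was at 0.0633, 0.329 and 0.183, lowest in lung-derived CD44high cells as in bulk, but in bulk lung-derived CD44low cells (8.85 and 10.89 TPM) lay below LN-derived CD44high cells (14.73 and 14.13 TPM). Slc30a3 had 0 counts in all 3 libraries, with an interval of up to 0.0167 per 10000 in lung-derived CD44high cells. The bulk libraries of that label gave 9.67 and 15.58 TPM. Together with Slc39a4 in LN-derived CD44high cells, Slc30a3 was a zinc gene seen in bulk and without a count in the single-cell library of the same label. Markers outside the zinc genes differed too. Dcn had 0 counts in lung-derived CD44high cells against 166.3 and 78.87 TPM in bulk, and the cycling markers differed as given above.

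BM CD44low replicate 2 had the highest level of the LN and BM libraries for Slc39a1 (93.36 TPM), Slc30a5 (22.21 TPM), Slc30a7 (26.93 TPM), Slc39a10 (20.53 TPM), Slc39a14 (19.41 TPM), Slc30a1 (0.88 TPM) and Mtf1 (19.83 TPM), and the lowest level of all 14 libraries for Slc39a7 (76.3 TPM). Its replicate gave 15.08, 5.17, 12.39, 6.42, 8.63, 0.1 and 8.73 TPM for the first 7 genes and 126.69 TPM for Slc39a7.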
